A study of Caenorhabditis elegans with 12 samples.

Results

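The genes described here are 10 enzymes of fatty acid beta-oxidation in the nematode Caenorhabditis elegans, taken by name from the 46904 genes listed for each library. They were acox-1.1, acox-1.2, maoc-1, dhs-28 and daf-22, whose products work in peroxisomes, and acdh-1, acdh-2, hacd-1, ech-6 and cpt-2, grouped here as mitochondrial. All 10 passed the filter on low counts. They were named without a threshold on a measured value, but with earlier results of these data known. RNA came from whole day 1 adults of 4 genotypes, each with 3 libraries sequenced as paired-end mRNA. The double mutant pfd-6(gk493446); daf-2(e1370) was strain IJ485. The single mutants were daf-2(e1370), strain CF1041, and pfd-6(gk493446), strain IJ462, and the wild type was N2. The gene daf-2 encodes the insulin/IGF-1 receptor, and e1370 is a reduction-of-function allele. The gene pfd-6 encodes a subunit of prefoldin, a chaperone that hands unfolded actin and tubulin to the TRiC chaperonin. Each mutant genotype was represented by a single strain, so a background difference of that strain cannot be told apart from the named mutation. All animals were raised on control RNA interference bacteria and, once at L4, put on plates containing FUdR, a drug that blocks the production of progeny. Those plates carried control or pfd-6 RNA interference bacteria according to the growth protocol, which does not assign libraries to plates, while the series design text names hsf-1 RNA interference. The genotype contrasts therefore take the libraries as labelled.

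Beta-oxidation shortens fatty acids in repeated rounds of 4 reactions: an acyl-CoA is oxidised, hydrated, oxidised again and cleaved by a thiolase. Mitochondria burn common fatty acids this way after carnitine palmitoyltransferases bring them in, and peroxisomes handle very long chains. In C. elegans the peroxisomal enzymes also trim the side chains of ascarosides, the small-molecule pheromones that signal crowding and promote dauer entry, the diapause that daf-2 mutants enter too readily. A side branch in mitochondria, the propionate shunt, uses acdh-1 and ech-6 to break down propionyl-CoA when the vitamin B12-dependent route is limited.

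Total counts ran from 19394046 to 41009125 per library, and the 10 genes together took 0.0520% to 0.171% of them. Levels are given as CPM (counts scaled to a common library size) after TMM, a factor that corrects for differences in RNA composition between libraries. The pfd-6 transcript bears on the pfd-6 labels alone. It lay between 9 and 21.3 CPM in the 6 libraries with the pfd-6 mutation and between 66.4 and 158 CPM in the other 6. This level does not check the daf-2 labels, and it does not separate the mutation from pfd-6 RNA interference. A pair of libraries stood apart: ribosomal protein genes took 1.45% of counts in daf-2 replicate 3 and 0.623% in pfd-6 replicate 3, against 9.66% to 16.1% elsewhere. The summed level of 8 intestine markers was 648 CPM in daf-2 replicate 3 and 701 CPM in pfd-6 replicate 3, and that of 6 hypodermis markers 109 and 91.1 CPM. In the other 10 libraries these sums ran from 1792 to 4270 CPM and from 1133 to 2681 CPM. All 48 markers of the 7 tissue classes examined were detected in every genotype. Fewer cells of a type and less RNA per cell cannot be told apart in such samples.

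Genes can be set side by side only per length, as CPM per kilobase of merged exons. On that scale ech-6, an enoyl-CoA hydratase, had the highest median over the 12 libraries, 145, followed by hacd-1, a 3-hydroxyacyl-CoA dehydrogenase, at 90.1. Next came dhs-28 (73.4), cpt-2 (52.8), acdh-1 (32.1), maoc-1 (27.4) and daf-22 (23.7). The oxidases acox-1.1 and acox-1.2 stood at 12 and 5.09, and the acyl-CoA dehydrogenase acdh-2 was lowest at 0.681. The genes also differed in how far their levels ranged. Between the lowest and the highest library cpt-2, a carnitine palmitoyltransferase, varied 1.89-fold and dhs-28 2.22-fold, while acdh-2 varied 59.9-fold and acdh-1 128-fold. The SD of log2 CPM over the 12 libraries was larger for acdh-1 than for 98.3% of the 15090 genes tested, and for cpt-2 it was larger than for 6.02%.

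**Figure D1:**
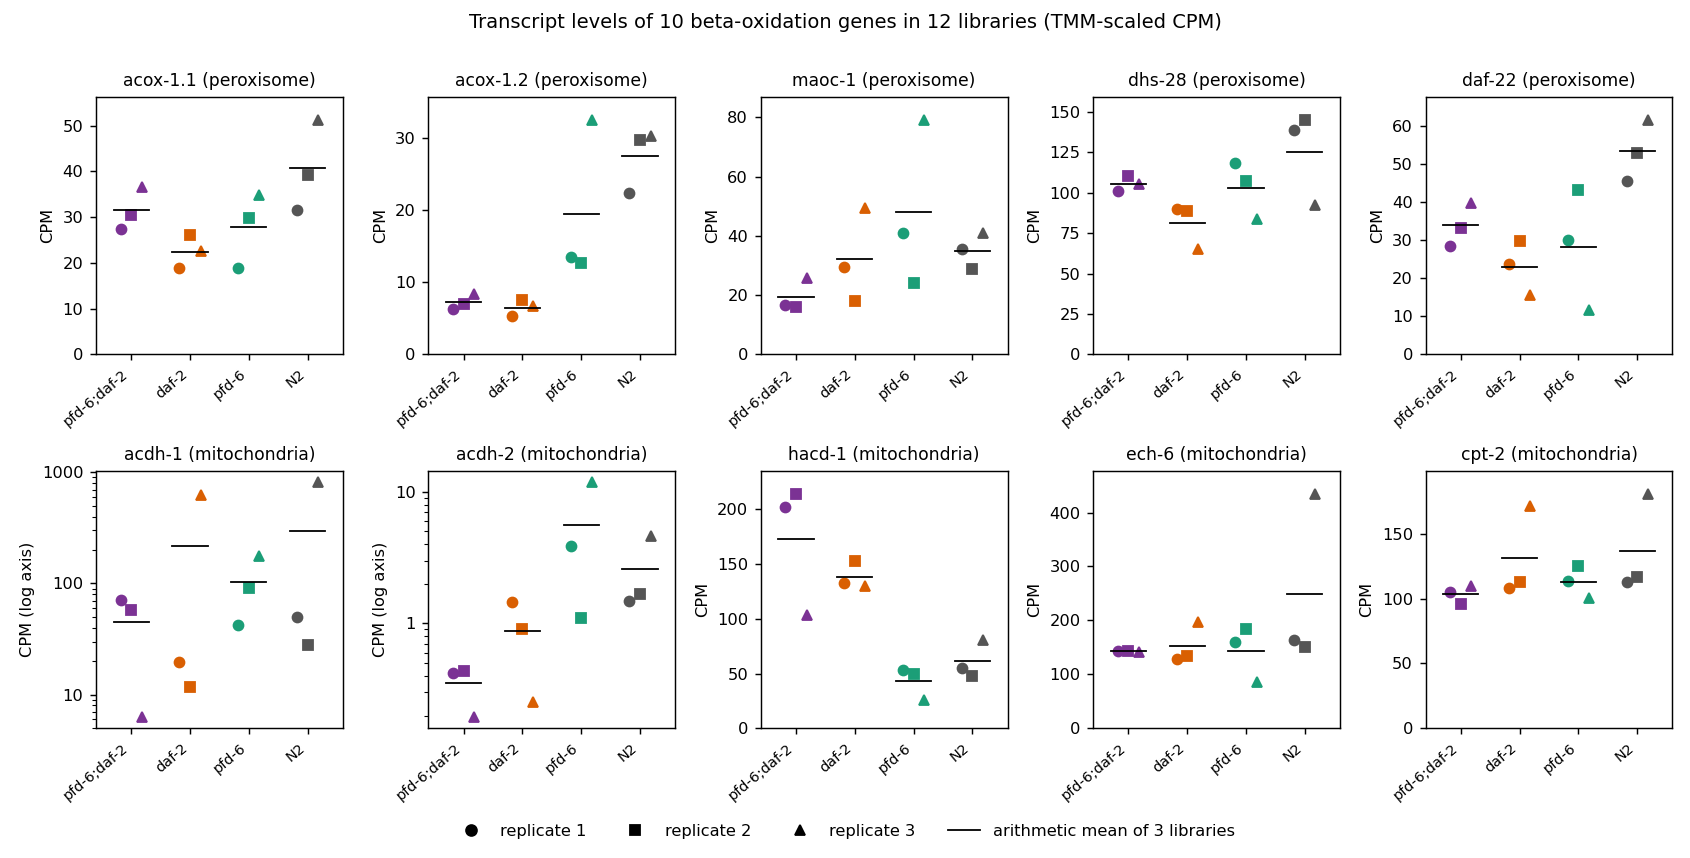
TMM-scaled CPM of the 10 genes in each of the 12 libraries, by genotype, with a bar at the arithmetic mean of 3 libraries and a symbol per replicate number. The axes of acdh-1 and acdh-2 are logarithmic. The acox-1.2 points lie at 5.28 to 8.45 CPM in the genotypes with mutated daf-2, and acdh-1 spans 6.34 to 812 CPM.

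Setting daf-2 against N2 shows which of these transcripts differ when insulin/IGF-1 signalling is reduced. Of the 10 genes 1 passed: acox-1.2, which encodes an acyl-CoA oxidase of the first peroxisomal step, was lower in daf-2. It had 5.28, 7.49 and 6.75 CPM in daf-2 replicates 1, 2 and 3, and 22.4, 29.7 and 30.3 CPM in N2. Every daf-2 library was below every N2 library. The log2 fold change was -2.08 (SE 0.38), a 4.22-fold lower level in daf-2, with adjusted p = 0.0222 by edgeR's quasi-likelihood test with Benjamini-Hochberg adjustment over all 15090 genes. Among all genes tested 0.934% passed in this comparison, and 0.219% passed with a lower level in daf-2. An unadjusted p under 0.05 was found for 5 of the 10 enzymes (acox-1.1, acox-1.2, dhs-28, daf-22 and hacd-1) and for 10.1% of all genes. The call needed all 6 libraries compared: the adjusted p from edgeR was 0.0788, 0.0908 and 0.0565 without N2 replicates 1, 2 and 3, and 0.117, 0.0765 and 0.0815 without daf-2 replicates 1, 2 and 3. The fold change stayed between -2.19 and -1.95 in these fits.

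The other peroxisomal genes did not pass. The neighbouring oxidase gene acox-1.1 had 18.8, 26.0 and 22.6 CPM in daf-2, and 31.6, 39.1 and 51.2 CPM in N2 (log2 fold change -0.85, SE 0.30, adjusted p = 0.299 by edgeR). For daf-22, the thiolase that ends each peroxisomal round, the values were 23.6, 29.7 and 15.7 CPM in daf-2, and 45.5, 52.9 and 61.4 CPM in N2 (-1.21, SE 0.41, adjusted p = 0.284 by edgeR). The groups did not overlap for either gene. Levels of dhs-28, the dehydrogenase of the third step, were 89.9, 88.7 and 65.1 CPM in daf-2, and 139, 145 and 92.7 CPM in N2 (-0.63, SE 0.26). Here the lowest N2 library was only just above the highest daf-2 library. The hydratase gene of the second step, maoc-1, overlapped between the groups, with 18.2 to 49.2 CPM in daf-2 and 28.7 to 40.9 CPM in N2 (-0.11, SE 0.45).

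Summed over the 5 peroxisomal genes, the level was 159 to 170 CPM in daf-2 and 274 to 295 CPM in N2. Without the TMM factor these sums were 164 to 214 CPM in daf-2 and 206 to 257 CPM in N2, and then overlapped. The mean log2 TMM factor was 0.43 higher in daf-2 than in N2. Leaving it out did not shift all genes alike, as the factor also differed between libraries of a genotype. The summed intestine markers also differed, at 648 to 2302 CPM in daf-2 and 2901 to 4270 CPM in N2, with 0 of 8 past the test and 5 of 8 with a negative fold change. Germline and oocyte markers had negative fold changes in 9 of 9, with 0 past the test. Their sums overlapped, at 2933 to 4912 CPM in daf-2 and 4354 to 8107 CPM in N2. Neuron markers had 6 of 7 fold changes positive and 0 past the test, but their median was only 0.09. Their sums overlapped, at 194 to 258 CPM in daf-2 and 201 to 260 CPM in N2. Negative fold changes were found for 6 of 8 sperm, 5 of 6 hypodermis, 4 of 6 body wall muscle and 3 of 4 pharynx markers. None of these passed. The part of these tissues in the differences above was not tested.

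Of the mitochondrial genes hacd-1 had the higher level in daf-2, with 132, 153 and 130 CPM there, and 55.2, 47.7 and 80.6 CPM in N2. Its groups did not overlap, but the test missed the threshold (log2 fold change 1.18, SE 0.36, adjusted p = 0.197 by edgeR). With replicates 1 and 2 alone it passed (1.48, adjusted p = 0.0249 by edgeR). The transcript acdh-2 had 1.45, 0.904 and 0.252 CPM in daf-2, and 1.48, 1.67 and 4.63 CPM in N2 (-1.55, SE 0.82). For ech-6 (-0.70, SE 0.43) and cpt-2 (-0.06, SE 0.28) the libraries of both groups overlapped. Across the 10 genes, 6 had groups that did not overlap, 5 lower (acox-1.1, acox-1.2, dhs-28, daf-22 and acdh-2) and 1 higher (hacd-1) in daf-2. Among all genes tested 18.3% were free of overlap (7.66% lower, 10.6% higher). For acdh-2 the gap was narrow, between 1.45 CPM in daf-2 replicate 1 and 1.48 CPM in N2 replicate 1. Without TMM the groups overlapped for acox-1.1, dhs-28 and acdh-2, and the share of all genes on that scale is not given. The median log2 fold change was -0.67 over the 10 genes and 0.03 over all genes tested. Without TMM the mean level was lower in daf-2 for 6 genes in place of 9, the ones that turned being maoc-1, acdh-1 and cpt-2.

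The same question was put where pfd-6 is also mutated, by setting double mutant libraries against pfd-6 libraries. These were not compared above, but all 12 libraries shared 1 fit and its estimate of spread. The contrasts are therefore not fully separate: without pfd-6 replicate 3 the adjusted p of acox-1.2 in daf-2 vs N2 was 0.00292 by edgeR. Of the 10 genes 2 passed, hacd-1 higher and acdh-2 lower in the double mutant, where 3.29% of all genes tested passed (2.29% higher, 1.00% lower). An unadjusted p under 0.05 was found for 4 of the 10, these 2 with acox-1.2 and maoc-1, and for 20.4% of all genes. The level of hacd-1 was 202, 214 and 104 CPM in the double mutant, and 52.8, 49.7 and 26.1 CPM in pfd-6. Every double mutant library was above every pfd-6 library, although replicate 3 was the lowest in both genotypes. The log2 fold change was 2.02 (SE 0.37, adjusted p = 0.0151 by edgeR), a 4.04-fold higher level. It stayed between 1.81 and 2.19 when any 1 of the 12 libraries was left out, and the call was lost without double mutant replicate 1 (adjusted p = 0.0603 by edgeR) and without double mutant replicate 2 (0.0565).

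Transcripts of acdh-2, an acyl-CoA dehydrogenase gene related to acdh-1, were scarce in the double mutant, with 0.423, 0.433 and 0.196 CPM, and reached 3.84, 1.096 and 11.8 CPM in pfd-6. The lowest of the double mutant libraries held 4 counts and the highest pfd-6 library, replicate 3, held 429. The log2 fold change was -3.95 (SE 0.91, adjusted p = 0.0375 by edgeR). Without pfd-6 replicate 3 it was -2.75 (adjusted p = 0.0915 by edgeR). The call was also lost without N2 replicates 1 and 2 (0.0502 and 0.0508), daf-2 replicate 2 (0.0562), pfd-6 replicate 1 (0.0641) and double mutant replicates 1, 2 and 3 (0.117, 0.114 and 0.158), all adjusted p from edgeR. It held in the other 4 of these fits.

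The third gene with no overlap was acox-1.2, which missed the threshold. It had 6.34, 7.06 and 8.45 CPM in the double mutant, and 13.5, 12.6 and 32.5 CPM in pfd-6 (log2 fold change -1.42, SE 0.37, adjusted p = 0.0589 by edgeR). The high pfd-6 value was replicate 3, and without it the fold change was -0.79 (adjusted p = 0.156 by edgeR). DESeq2 called the gene (adjusted p = 0.0102), as did edgeR without N2 replicate 3 (adjusted p = 0.0456) and without pfd-6 replicate 2 (0.0412). Genes without overlap made up 28.6% of all genes tested here (14.6% higher, 13.9% lower), and 3 of the 10 enzymes, 1 higher and 2 lower. For maoc-1 the values were 16.6, 16.1 and 25.6 CPM in the double mutant, and 41.0, 24.1 and 78.99 CPM in pfd-6 (-1.31, SE 0.45, adjusted p = 0.135 by edgeR). The fold changes of acox-1.1 (0.18), dhs-28 (0.04), daf-22 (0.26), ech-6 (-0.01) and cpt-2 (-0.13) had SE from 0.26 to 0.42, and none passed. The median was -0.07 over the 10 genes and -0.02 over all genes tested. Other tissue markers differed between these genotypes: 8 sperm markers summed to 62.5 to 158 CPM in the double mutant and 3.93 to 20.9 CPM in pfd-6, and 6 hypodermis markers to 2572 to 2681 CPM and 91.1 to 1363 CPM. Sperm markers passed for 4 of 8 and hypodermis markers for 2 of 6, all higher in the double mutant. Those 2, dpy-13 and rol-6, averaged only 14.1 and 1.99 CPM there. Fold changes were also positive for 6 of 6 body wall muscle, 4 of 4 pharynx and 7 of 8 intestine markers. They were positive for 5 of 9 germline and oocyte and 3 of 7 neuron markers. None of these further classes had a marker that passed. The part of the tissues in these results was not tested.

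**Figure D2:**
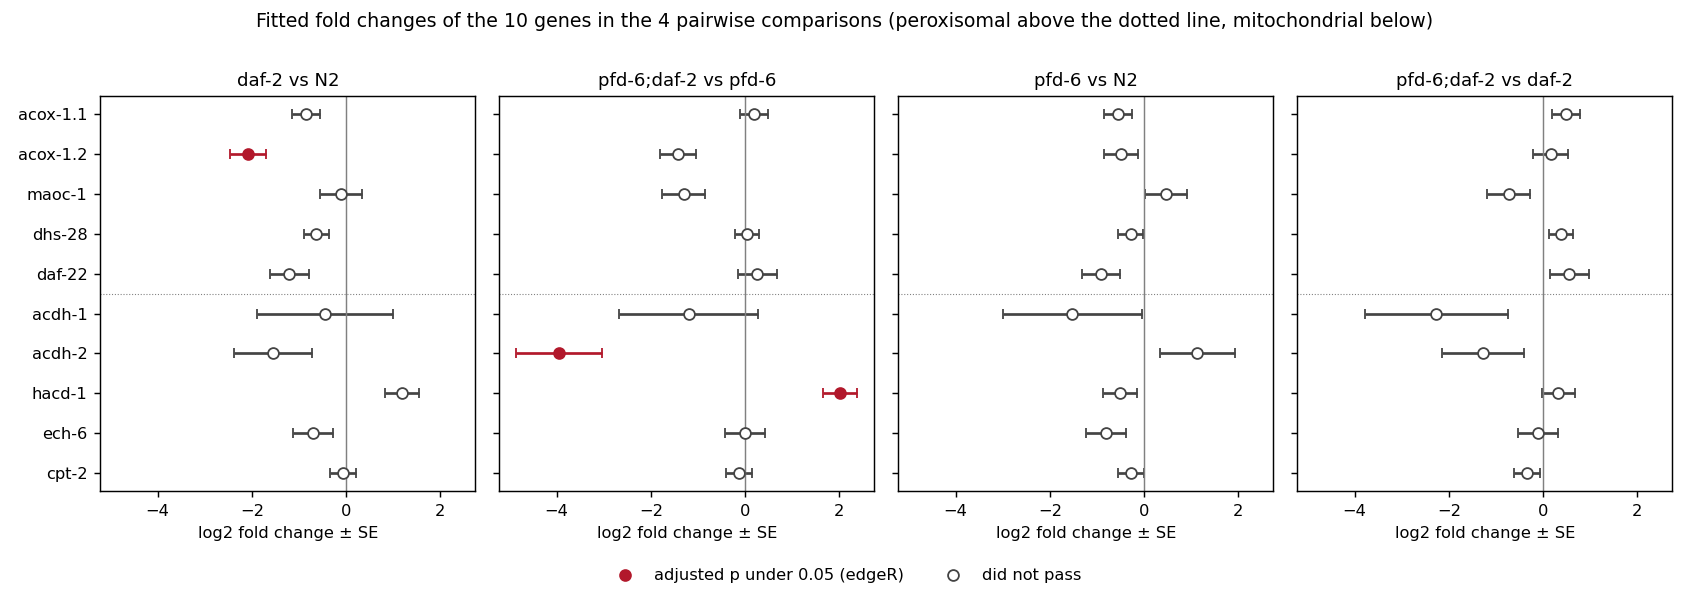
Log2 fold change of each gene with its SE from edgeR in the 4 pairwise comparisons, with filled red points for adjusted p under 0.05. The 3 filled points are acox-1.2 in daf-2 vs N2 (-2.08) and acdh-2 (-3.95) and hacd-1 (2.02) in the double mutant vs pfd-6.

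Whether the daf-2 difference itself differed between the 2 backgrounds was tested as an interaction, the log2 fold change of double mutant over pfd-6 less the one of daf-2 over N2. None of the 10 genes passed this edgeR test, 2 had an unadjusted p under 0.05, and DESeq2 and limma-voom each called 0; among all genes 0.139% passed and 17.4% had an unadjusted p under 0.05. Those 2 were daf-22 (1.47, SE 0.58, adjusted p = 0.252 by edgeR) and acox-1.1 (1.03, SE 0.42, adjusted p = 0.259 by edgeR). For acox-1.2 the interaction was 0.65 (SE 0.52), and for hacd-1 it was 0.84 (SE 0.50).

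The genes acox-1.1 and acox-1.2 lie head to tail on the plus strand of chromosome I, at 12938555 to 12942227 and 12942280 to 12946588 (WBcel235), with 52 bases between them. Their ratio within a library does not depend on how libraries are scaled. Per kilobase of exon, acox-1.2 stood at 0.281 of acox-1.1 in each of the 3 double mutant libraries and at 0.340, 0.350 and 0.363 in daf-2. The ratio was 0.871, 0.513 and 1.14 in pfd-6, and 0.860, 0.924 and 0.720 in N2. All 6 libraries with mutated daf-2 were thus below all 6 with intact daf-2, and pfd-6 spread the most. This ratio was formed after the values were seen and carries no test. Counts of acox-1.2 were not whole in 7 of 12 libraries, a sign that some of its reads were shared with another gene by the counting, and its levels are uncertain to that extent. Counts of the other 9 genes were whole in all libraries.

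**Figure D3:**
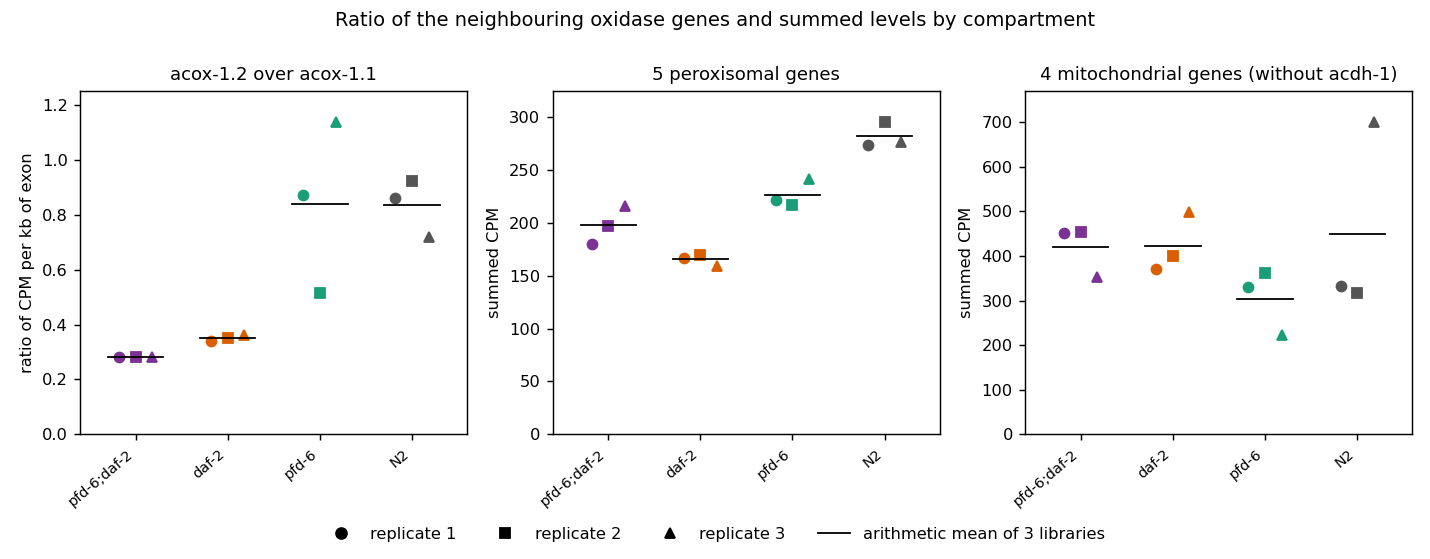
Left, ratio of acox-1.2 to acox-1.1 in CPM per kilobase of exon; middle and right, summed CPM of the 5 peroxisomal genes and of the 4 mitochondrial genes other than acdh-1, per library, with a bar at the arithmetic mean of each genotype. The ratio is 0.281 to 0.363 in the 6 libraries with mutated daf-2 and 0.513 to 1.14 in the other 6.

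The effect of the pfd-6 mutation by itself was read from pfd-6 against N2, which shares the N2 libraries with the daf-2 contrast. None of the 10 genes passed by edgeR, 1 had an unadjusted p under 0.05, and DESeq2 and limma-voom each called 0; 0.0994% of all genes passed and 6.93% had an unadjusted p under 0.05. That gene was daf-22, with 30.1, 43.1 and 11.5 CPM in pfd-6, and 45.5, 52.9 and 61.4 CPM in N2 (log2 fold change -0.92, SE 0.41, adjusted p = 0.614 by edgeR). It was also the single gene of the 10 whose groups did not overlap, against 7.46% of all genes (2.75% lower in pfd-6). Its lowest value, 11.5 CPM, came from pfd-6 replicate 3, the library low in ribosomal protein transcripts. For maoc-1 the same library was the high one, at 78.99 CPM, and without it the fold change was -0.07 in place of 0.46. The levels of acox-1.2 (-0.49, SE 0.36), hacd-1 (-0.51, SE 0.35) and dhs-28 (-0.29, SE 0.26) overlapped between the groups. The median was -0.50 over the 10 genes and 0.04 over all genes tested. Without TMM the mean was lower in pfd-6 for 4 genes in place of 8. The mean log2 TMM factor was 0.44 higher in pfd-6 than in N2. Tissue markers with negative fold changes were 9 of 9 germline and oocyte, 6 of 6 body wall muscle and 4 of 4 pharynx. So were 7 of 8 intestine, 5 of 6 hypodermis, 4 of 8 sperm and 4 of 7 neuron markers. None passed in any class. Their medians ran from -1.25 (hypodermis) to -0.03 (sperm), and their part in the enzyme values was not tested.

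What the pfd-6 mutation adds under reduced insulin/IGF-1 signalling was read from double mutant against daf-2 libraries. None of the 10 genes passed by edgeR, 0 had an unadjusted p under 0.05, and DESeq2 and limma-voom each called 0, while 3.11% of all genes tested passed and 15% had an unadjusted p under 0.05. The groups did not overlap for acox-1.1, with 27.5, 30.6 and 36.5 CPM in the double mutant, and 18.8, 26.0 and 22.6 CPM in daf-2 (log2 fold change 0.49, SE 0.30). The same held for dhs-28, with 101, 110 and 106 CPM in the double mutant, and 89.9, 88.7 and 65.1 CPM in daf-2 (0.38, SE 0.26). Such separation was seen in 28.6% of all genes tested, with the double mutant higher in 14.4%. The levels of acox-1.2 averaged 7.28 ± 1.07 CPM in the double mutant and 6.51 ± 1.13 CPM in daf-2 (SD, n = 3 each), a log2 fold change of 0.16 (SE 0.37). For hacd-1 they averaged 173 ± 60.6 CPM in the double mutant and 138 ± 12.5 CPM in daf-2 (0.32, SE 0.35).

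By mean level the genotypes fell in the same order for acox-1.1, dhs-28 and daf-22: N2, double mutant, pfd-6, daf-2. Neighbours in that order overlapped for all 3 genes, except for daf-22 at the top of the order, with 28.5 to 39.8 CPM in the double mutant and 45.5 to 61.4 CPM in N2. For acox-1.2 the order was N2, pfd-6, double mutant, daf-2, with a clear step only between pfd-6 and the double mutant. For hacd-1 it was double mutant, daf-2, N2, pfd-6, with a step between daf-2 and N2. For acdh-2 it was pfd-6, N2, daf-2, double mutant. There N2 and daf-2 were only just apart, at 1.48 CPM in N2 replicate 1 and 1.45 CPM in daf-2 replicate 1. Without TMM they overlapped, at 1.36 CPM in N2 replicate 2 and 1.56 CPM in daf-2 replicate 1. In acdh-1, ech-6, cpt-2 and maoc-1 every pair of neighbours overlapped. Without TMM the order stayed the same for daf-22, hacd-1, acdh-2 and ech-6 and changed for the other 6 genes. On that scale pfd-6 stood above N2 for acox-1.1 (33.5 CPM in pfd-6, 33.2 CPM in N2), acox-1.2 (25.6 CPM in pfd-6, 22.6 CPM in N2) and dhs-28 (116 CPM in pfd-6, 106 CPM in N2).

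The gene acdh-1, an acyl-CoA dehydrogenase that starts the propionate shunt and whose transcript is known to fall when vitamin B12 is plentiful, differed far more between replicates than between genotypes. In replicates 1, 2 and 3 it had 71.1, 57.6 and 6.34 CPM in the double mutant, 19.5, 11.7 and 621 CPM in daf-2, 41.9, 91.9 and 176 CPM in pfd-6, and 50.1, 27.8 and 812 CPM in N2. Replicate 3 was the highest library of daf-2, pfd-6 and N2 and the lowest of the double mutant. It stood at 39.8, 2.62 and 20.9 times the mean of replicates 1 and 2 in daf-2, pfd-6 and N2, and the mean of replicates 1 and 2 was 10.2 times replicate 3 in the double mutant. In N2 replicate 3 acdh-1 made up 45.4% of the summed CPM of the 10 genes, and in double mutant replicate 3 it made up 1.1%. The extraction protocol describes 2 biological repeats sequenced first and a last set added later, without saying which numbers those were. The acdh-1 fold changes were -0.45 in daf-2 vs N2, -1.52 in pfd-6 vs N2, -2.27 in the double mutant vs daf-2 and -1.196 in the double mutant vs pfd-6, with SE from 1.45 to 1.52. With replicates 1 and 2 alone the double mutant vs daf-2 value was 2.10 (adjusted p = 0.0853 by edgeR), of the opposite sign.

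The next enzyme of the shunt, ech-6, had 144, 143 and 141 CPM in the double mutant, 129, 133 and 197 CPM in daf-2, 159, 185 and 84.9 CPM in pfd-6, and 163, 151 and 434 CPM in N2. It was high in N2 and daf-2 replicate 3, as acdh-1 was, and low in pfd-6 replicate 3, where acdh-1 was high. The third enzyme, the hydrolase gene hach-1, had 66.2, 63.8 and 61.4 CPM in the double mutant, 61.2, 62.2 and 102 CPM in daf-2, 71.7, 78.7 and 43.2 CPM in pfd-6, and 69.4, 69.6 and 205 CPM in N2. Of the 15089 other genes tested, hach-1 was the one whose log2 CPM followed ech-6 most closely over the 12 libraries (Pearson r = 0.986). The dehydrogenase gene hphd-1, which acts next, reached 368 CPM in N2 replicate 3 and 103 CPM in daf-2 replicate 3, and lay between 8.05 and 30.1 CPM in the other 10 libraries. Its r was 0.83 with ech-6 and 0.735 with acdh-1, while that of acdh-1 with ech-6 was 0.547. The last gene of the shunt, alh-8, was high in N2 replicate 3 too, at 840 CPM beside 369 and 527 CPM in replicates 1 and 2. It was low in daf-2 replicate 3, at 94.9 CPM beside 263 and 358 CPM, and in pfd-6 replicate 3, at 51.2 CPM beside 298 and 397 CPM. These correlations describe 12 points that share libraries, depth and scaling. Of the nuclear receptors known to raise acdh-1 in response to propionate, nhr-68 had 57.2 CPM in daf-2 replicate 3 and 71.1 CPM in pfd-6 replicate 3, and 12.2 to 26.0 CPM in the other libraries, N2 replicate 3 included. The other, nhr-10, lay between 12.8 and 38.2 CPM.

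**Figure D4:**
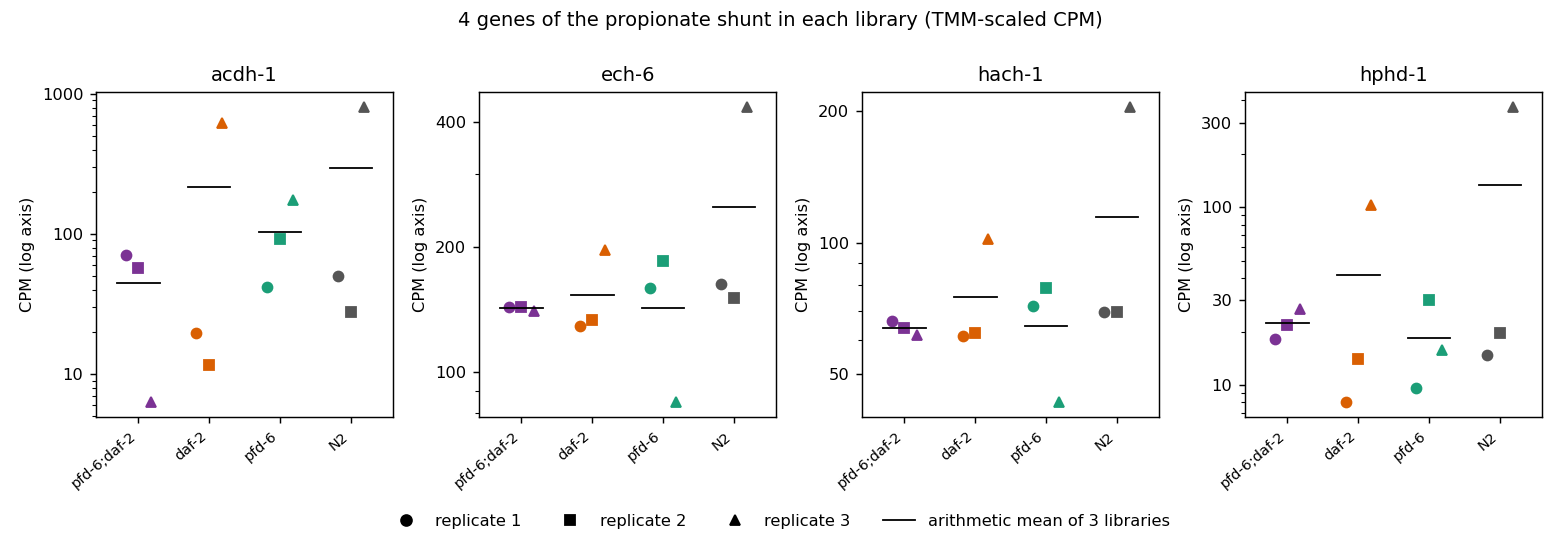
TMM-scaled CPM of acdh-1, ech-6, hach-1 and hphd-1 in each library on logarithmic axes, with a bar at the arithmetic mean of 3 libraries. N2 replicate 3 is the highest library in all 4 panels, and double mutant replicate 3 is the lowest for acdh-1, at 6.34 CPM.

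The 10 enzymes did not move as one group across the libraries: of 45 pairs 30 had a positive r in log2 CPM, with a median of 0.189. The pairs with the highest values were ech-6 with cpt-2 (0.832) and acox-1.2 with acdh-2 (0.746), and the lowest was acox-1.2 with hacd-1 (-0.828). Among all genes, those most like each member by Pearson r over the 12 libraries were then listed, 3 per gene. For acox-1.2 they were Y48E1B.8, C52E2.4 and tig-3 (0.943, 0.94 and 0.94), and for acox-1.1 vap-1, dpyd-1 and ZK6.6 (0.955, 0.929 and 0.928). For hacd-1 they were F45D11.14, dhc-4 and sdz-8 (0.947, 0.927 and 0.922), and for acdh-2 C09B8.4, T16G1.4 and math-14 (0.922, 0.908 and 0.885). Closest to acdh-1 were C23H5.8, F32H5.1 and sptl-3 (0.928, 0.902 and 0.901), and to ech-6, after hach-1, F42A10.5 and T28D6.6 (0.96 each). The gene daf-22 was followed by qars-1, ttc-7 and Y39B6A.1 (0.976, 0.97 and 0.964), and dhs-28 by nath-10, frm-8 and pqn-48 (0.957, 0.937 and 0.931). For maoc-1 they were lars-2, daf-36 and hrg-6 (0.964, 0.956 and 0.952), and for cpt-2 C42C1.8, haf-3 and dpt-1 (0.975, 0.96 and 0.957). With 12 libraries and so many genes, values of this size say little beyond the ranking.

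Other genes of fat oxidation were taken from 5 lists of 89 names, 88 of them tested. None of 16 further peroxisomal genes passed in any of the 5 comparisons. The smallest p among them was that of prx-10, a peroxin of the import machinery, with 35.7 ± 4.71 CPM in the double mutant and 86.9 ± 21.7 CPM in pfd-6 (-1.28 on the log2 scale, SE 0.33, adjusted p = 0.0579 by edgeR). The peroxisomal catalase ctl-2 averaged 61.95 ± 17.04 CPM in the double mutant and 32.45 ± 16.99 CPM in pfd-6. Of 29 further mitochondrial genes none passed, with cpt-3, another carnitine palmitoyltransferase, at 0.295 ± 0.307 CPM in daf-2 and 3.75 ± 2.32 CPM in N2 (-3.66, adjusted p = 0.108 by edgeR). With the replicate number as a block cpt-3 passed (-3.83, adjusted p = 0.0178 by edgeR). The acyl-CoA dehydrogenase acdh-8 averaged 4.27 ± 2.17 CPM in the double mutant and 0.302 ± 0.058 CPM in daf-2 (3.80, adjusted p = 0.0716 by edgeR), and it too passed with the block (3.70, adjusted p = 0.0246 by edgeR). None of 9 further genes of the propionate shunt and the methylmalonyl route passed, nor did any of 13 regulators, daf-16, hsf-1, nhr-49 and mdt-15 among them.

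Of 21 acyl-CoA synthetases, which activate fatty acids before oxidation, 2 passed. Among all genes tested 0.934% passed in daf-2 vs N2, 3.11% in the double mutant vs daf-2 and 3.29% in the double mutant vs pfd-6. The level of acs-17 was higher with the daf-2 mutation in both backgrounds: it averaged 44.1 ± 9.43 CPM in daf-2 and 15.1 ± 4.68 CPM in N2 (log2 fold change 1.55, SE 0.32, adjusted p = 0.0468 by edgeR). In the pfd-6 background it averaged 40.6 ± 4.57 CPM in the double mutant and 15.9 ± 4.96 CPM in pfd-6 (1.35, SE 0.32, adjusted p = 0.0409 by edgeR). The gene acs-10 rose in the double mutant, to 3.56 ± 1.81 CPM, against 0.252 ± 0.193 CPM in daf-2 (3.79, adjusted p = 0.0187 by edgeR) and 0.265 ± 0.042 CPM in pfd-6 (3.72, adjusted p = 0.0151 by edgeR). These calls depended on single libraries. With any 1 library left out, acs-17 passed in daf-2 vs N2 only without pfd-6 replicate 1 or 3 (2 of 12 fits, adjusted p by edgeR up to 0.214) and in the double mutant vs pfd-6 only without replicate 3 of N2, daf-2 or pfd-6 (3 of 12 fits, up to 0.194). The acs-10 call in the double mutant vs daf-2 was lost without any daf-2 library or without double mutant replicate 1 or 3 (adjusted p by edgeR from 0.0514 to 0.0866). In the double mutant vs pfd-6 it was lost without pfd-6 replicate 1 (0.0526) and without double mutant replicate 3 (0.0723). The log2 fold changes kept their sign in all these fits, at 1.16 or more. In the double mutant vs daf-2, 6 of 8 sperm markers also passed, all higher in the double mutant, with sums of 62.5 to 158 CPM there and 2.24 to 6.56 CPM in daf-2. The hypodermis sums were 2572 to 2681 CPM in the double mutant and 109 to 1351 CPM in daf-2, with 0 of 6 past the test. Fold changes there were also positive for 6 of 6 body wall muscle, 3 of 4 pharynx and 6 of 8 intestine markers. They were positive for 6 of 9 germline and oocyte and 3 of 7 neuron markers, and none of these passed. The part of any tissue in the acs-10 result was not tested. For acs-3 the values were 12.7 ± 2.52 CPM in daf-2 and 4.13 ± 0.50 CPM in N2 (1.62, adjusted p = 0.056 by edgeR). With the replicate number as a block, 2 synthetases passed in daf-2 vs N2 in place of 1, the added gene being acs-3 (1.59, adjusted p = 0.0178 by edgeR). In the double mutant vs daf-2 the block gave 3 in place of 1, adding acs-18 (4.58, adjusted p = 0.00788 by edgeR) and acs-2 (3.01, adjusted p = 0.0102 by edgeR), of which acs-2 was named after its values were seen. The share of all genes that passed with the block is not given, so these block counts cannot be judged against it. All ± values are SD with n = 3 in each genotype.

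The 10 genes lie on all 6 chromosomes. Beyond the acox pair, acdh-1 is on chromosome I (6497436 to 6499560), maoc-1, acdh-2 and daf-22 are on II (from 7196276, 5544778 and 12423518), and ech-6 is on III (9751552 to 9752883). On IV lies cpt-2 (11179645 to 11183008), on V hacd-1 (1460369 to 1461613) and on X dhs-28 (6818438 to 6820080). The maoc-1 exons overlap those of E04F6.6 on the opposite strand by 105 bases, and dhs-28 exons overlap gei-15 on the opposite strand by 76 bases. The acdh-2 exons share 87 bases with ins-13, an insulin-like peptide gene on the same strand. Whether counting used the strand is not given in the sources used here, so reads from those stretches cannot be assigned to either gene with certainty.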

How the data were processed

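The 12 deposited tables (4 genotypes, 3 libraries each) hold, per the file headers, the authors' expected counts for each gene, with no correction for depth. Programs listed in the submitters' processing notes are RSEM 1.3.1, HISAT2 2.0.5, StringTie 1.3.3, R 3.1.3 and limma 3.24.15. The notes list WBcel235 and ce11 as builds and give no order of steps. Gene symbols were found for 44017 of the 46904 IDs, and 46817 IDs had positions and exon lengths in the WBcel235 annotation of Ensembl release 115.

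After rounding to whole numbers and filterByExpr, 15090 genes were kept. TMM factors were computed, and all libraries entered 1 quasi-likelihood model by genotype (edgeR 4.0.16 under R 4.3.3). A gene passed when its Benjamini-Hochberg adjusted p, taken over all genes, was under 0.05. The model was tested on simulated data. Correlations used log2 CPM with a prior count of 2. The alternatives exchanged edgeR for DESeq2 1.42.0 or limma-voom (limma 3.58.1), TMM for RLE, and the filter for none. Others set the threshold at 0.01, fitted only the genotypes compared, blocked by replicate number, used replicates 1 and 2, dropped the third replicates of daf-2 and pfd-6 together, or dropped each library in turn.

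Replicate libraries differed by more than sampling noise in every genotype (chi-square per degree of freedom 21.6 or more). The labels speak of biological repeats without naming separate cultures, so p-values measure the spread between these samples. Deviations from genotype means correlated above 0.1 in each same-numbered pair of daf-2 with N2 (0.453, 0.271 and 0.31) and of the double mutant with daf-2 (0.315, 0.211 and 0.137). Those numbers were therefore taken to pair the libraries. The main tests nonetheless left the number out, and blocking by it was an alternative. Results given without the block therefore ignore this pairing. In daf-2 vs N2 the block gave acox-1.2 -2.07 (adjusted p = 0.0106 by edgeR), acox-1.1 -0.83 (0.0909) and dhs-28 -0.62 (0.183). Correlations were not all above 0.1 for the double mutant with pfd-6 (0.299, 0.0494 and 0.0195) or pfd-6 with N2 (0.345, 0.0344 and 0.000163). They were for pfd-6 with daf-2 (0.749, 0.655 and 0.704) and the double mutant with N2 (0.33, 0.368 and 0.501). Whether the replicate number marks a batch common to all genotypes was not tested.

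Genes and lists were chosen with earlier results of these data known. Those named are the 10 enzymes, the list members that passed or had the smallest p, and for each enzyme the 3 most correlated genes. The shunt genes hach-1, hphd-1 and alh-8 and the receptors nhr-10 and nhr-68 are described for their place beside acdh-1, with their values already seen.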

Additional observations from a re-analysis of the deposited data

How the results depend on the processing

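With edgeR, 1 of the 10 genes passed in daf-2 vs N2 and 2 in the double mutant vs pfd-6. These counts were 2 and 1 with replicates 1 and 2 alone, and 0 and 0 at an adjusted p under 0.01. For the double mutant vs pfd-6 the count was 3 with DESeq2, 1 with limma-voom, 0 with the compared groups alone, and 1 once replicate 3 of daf-2 and of pfd-6 were both dropped. With the replicate number as a block it was 4 (acox-1.2, maoc-1, acdh-2 and hacd-1). Same-numbered libraries of these genotypes did not all correlate above 0.1. The block changed no other call among the 10 genes. In that comparison it also called 5 acyl-CoA synthetases in place of 2, and 2 further peroxisomal genes, 1 gene of the propionate and methylmalonyl routes and 2 regulators in place of 0 each. Leaving out 1 library gave 0 to 1 genes in daf-2 vs N2 and 0 to 3 in the double mutant vs pfd-6. In the other 3 comparisons the count was 0 under every alternative run. The share of all genes that passed under each alternative is not given, so these counts cannot be judged against it. In the main fit that share was 0.934% in daf-2 vs N2 and 3.29% in the double mutant vs pfd-6.

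Of 440 log2 fold changes under the alternatives other than a single library left out, 408 kept their direction and their side of the threshold, and 20 changed sign. Of 600 with 1 library left out, 553 kept both and 29 changed sign. The cause of these changes was not tested. Signs turned with limma-voom for ech-6 in the double mutant vs pfd-6 (0.0616) and with the compared groups alone for dhs-28 there (-0.0892). With the replicate block they turned for acdh-1 in the double mutant vs daf-2 (0.40) and in the interaction (0.51). With replicates 1 and 2 alone they turned in pfd-6 vs N2 for acdh-1 (0.75), ech-6 (0.13) and cpt-2 (0.0572), in the double mutant vs daf-2 for acdh-1 (2.10) and ech-6 (0.19), in the double mutant vs pfd-6 for dhs-28 (-0.0308), daf-22 (-0.17) and acdh-1 (0.0282), and in the interaction for acdh-1 (1.35).

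Leaving out 1 library, or replicate 3 of both single mutants, gave log2 fold changes on both sides of 0 for some genes. In daf-2 vs N2 these were maoc-1 (-0.54 to 0.17), acdh-1 (-4.22 to 2.44) and cpt-2 (-0.29 to 0.14). In pfd-6 vs N2 they were maoc-1 (-0.0722 to 0.77) and acdh-1 (-2.14 to 1.396). In the double mutant vs daf-2 they were acox-1.2 (-0.0262 to 0.27), acdh-1 (-2.83 to 1.59) and ech-6 (-0.22 to 0.17). In the double mutant vs pfd-6 they were acox-1.1 (-0.0555 to 0.44), dhs-28 (-0.095 to 0.15), daf-22 (-0.096 to 0.70) and ech-6 (-0.26 to 0.22). In the interaction they were acdh-1 (-3.75 to 3.70), ech-6 (-0.047 to 0.94) and cpt-2 (-0.39 to 0.20). None of these genes passed in the comparison named. Without TMM, 35 of 40 genotype means moved by less than 1 SD. Depth limits acdh-2 most, with 4 to 14 counts per double mutant library.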
